A study of Mus musculus with 5 samples.

Results

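Of the 8 genes described here, 7 encode S100 proteins (S100a4, S100a6, S100a8, S100a9, S100a10, S100a11 and S100a13) and 1, Lcn2, encodes lipocalin-2. They were chosen by name with the log2 difference between conditional and control arrays already known, and each was read, among 19937 genes measured, from the probe set that carries that single gene symbol and has the highest mean over all arrays. Sorted CD45+CD3+CD4+CD44low T cells of the mouse colonic lamina propria, the layer under the gut epithelium, were measured on 5 arrays. In 3 conditional arrays the mice carried floxed Cnb1, the gene for the regulatory subunit of calcineurin, and a Cre recombinase driven by CD4 (CD4cre/Cnb1flox), and in 2 control arrays, labelled both WT and CD4neg/Cnb1flox, they had no Cre. By those genotype labels the floxed allele was common to both groups. A Cre driven by CD4 acts on all T cells that pass through the CD4-positive stage of the thymus and not on the cells sorted alone. The labels give no age and do not say whether one array held RNA of one mouse or of several, so differences between arrays of a group may be technical.

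S100 proteins are small calcium-binding proteins that, on binding calcium, expose a surface for partner proteins. S100A8 and S100A9 pair as calprotectin, which withholds zinc and manganese from microbes and is made in bulk by neutrophils and monocytes. Lipocalin-2 captures bacterial siderophores, the small molecules with which bacteria collect iron, and is made by neutrophils, macrophages and inflamed gut epithelium. Both are measured in stool as markers of gut inflammation. S100A4, S100A6, S100A10 and S100A11 act mainly inside cells on the cytoskeleton, on annexins and at membranes, and are common in memory T cells as well as in epithelium and stroma.

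The arrays were not alike in cell makeup, as the plot of summed marker signal shows. Control replicate 1 had the lowest T cell marker signal, a log2 sum of 12.24 over 10 measured genes against 14.56 to 14.77 in conditional arrays and 14.93 in control replicate 2, with Cd3e at 9.45 there and between 11.61 and 12.21 elsewhere, and Cd2 at 9.77 there and between 11.76 and 12.10 elsewhere. It had the highest signal of colon epithelium, 14.46 over 15 genes against 11.76 to 12.59 elsewhere, and of stroma and endothelium, 14.68 over 9 genes against 12.75 to 13.65 elsewhere. Krt8, a keratin of simple epithelia, was at 12.59 in control replicate 1 and between 8.85 and 10.08 elsewhere, and Dcn, a matrix proteoglycan of fibroblasts, at 13.20 and between 11.90 and 12.80. The epithelial sum of control replicate 2, 12.59, was also above the 11.76 to 12.18 of the conditional arrays. The epithelial marker Car1 was high in both controls, at 11.09 and 10.97, against 8.52, 8.53 and 10.15 in conditional arrays. Each member is therefore given against each control separately. In these bulk samples fewer cells of a type and less RNA per cell cannot be told apart. The targeted gene Ppp3r1 was read at 8.64, 8.83 and 8.77 in conditional and at 8.99 and 8.60 in control replicates 1 and 2, with overlapping groups, and the probe set may lie outside the deleted part.

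**Figure D1:**
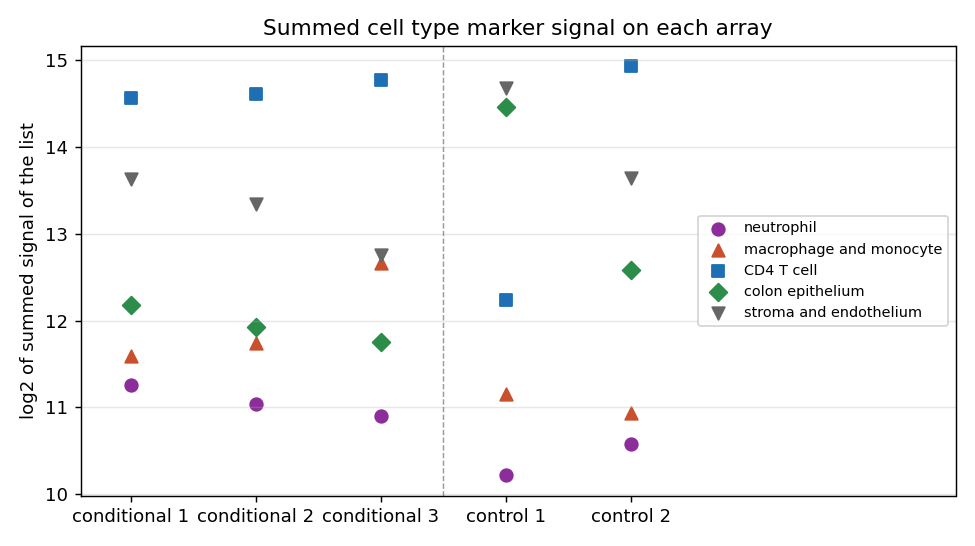
Log2 of the summed linear signal of 5 marker lists (vertical axis) on each of the 5 arrays (horizontal axis), 1 point per list and array. T cell markers are lowest and epithelial and stromal markers highest in control replicate 1, where the T cell sum is 12.24 and the epithelial sum 14.46.

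Lcn2 stood furthest apart of the 8 genes. Its log2 level was 10.03, 9.27 and 9.35 in conditional replicates 1, 2 and 3, and 6.37 and 6.62 in control replicates 1 and 2. All conditional arrays lay above both controls, and the controls differed from each other by only 0.25. The conditional mean was 9.55 ± 0.417 (SD, n = 3) against 6.49 in control, a difference of 3.06 ± 0.267 (SE), or 8.32-fold. The control levels of Lcn2 ranked at percentile 29.8 and 33.6 among all genes, where array signals may be near background, and in the conditional arrays between the 80.2 and 90.4 percentiles.

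The calprotectin genes had smaller differences. Neither passed the limma test over all genes that Lcn2 passed. S100a8 did pass with arrays centred on their median and with an intensity trend. Since the members were chosen with this contrast known, the test does not set Lcn2 apart from them. S100a8 was read at 6.999, 7.25 and 6.85 in conditional and at 5.74 and 5.69 in control arrays. S100a9 was read at 7.96, 8.19 and 7.46 in conditional and at 6.46 and 6.58 in control arrays. Neither gene overlapped between groups, and conditional replicate 2 was the highest and conditional replicate 3 the lowest of the conditional arrays for both. The difference was 1.32 ± 0.150 (SE) for S100a8, 2.5-fold, and 1.35 ± 0.238 (SE) for S100a9, 2.55-fold. With control replicate 1 as the only control the differences were 1.29 and 1.41, and with control replicate 2 they were 1.35 and 1.29, so the choice of control array moved them little. For Lcn2 these values were 3.18 and 2.93. S100a8 ranked at percentile 20.3 and 18.2 among all genes in the controls and at most at the 48.4 percentile in conditional arrays, so its signal was dim throughout.

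**Figure D2:**
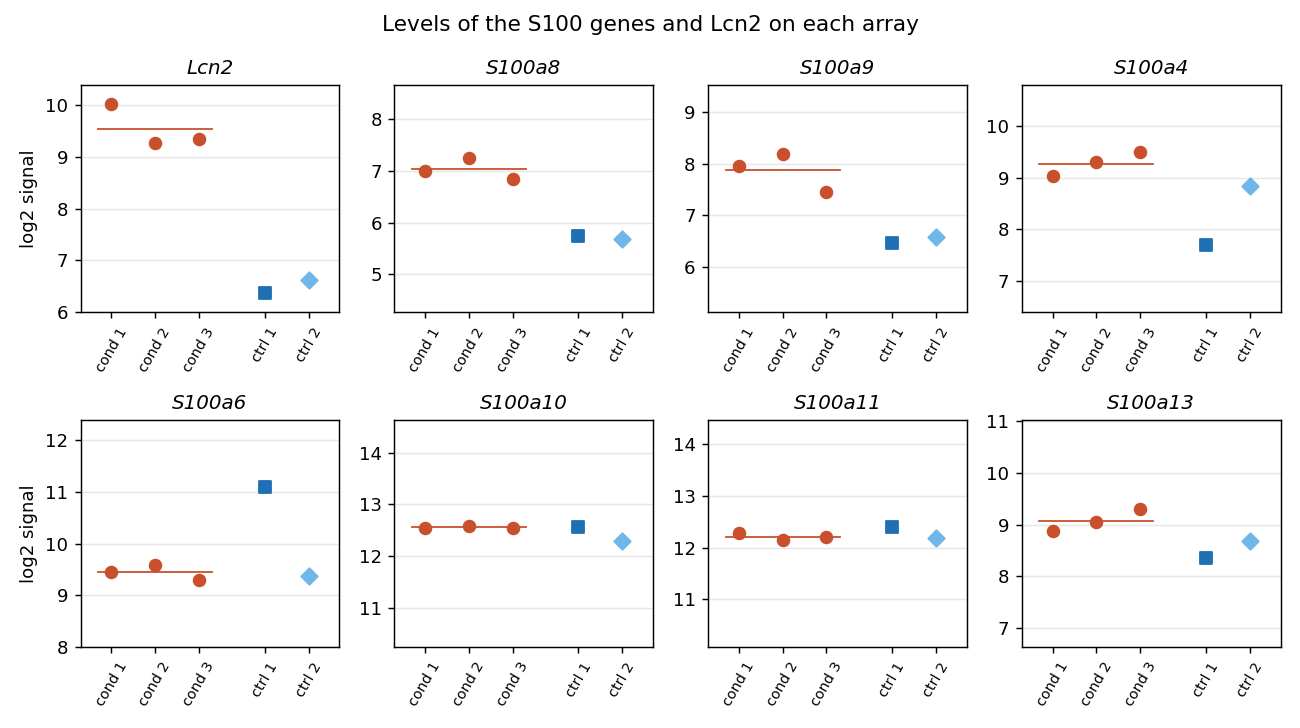
Log2 signal (vertical axis, each panel spanning the same number of log2 units) of the 8 genes on the 3 conditional (circles, with their mean as a line) and 2 control arrays (square and diamond). Lcn2, S100a8, S100a9, S100a4 and S100a13 have all conditional arrays above both controls, while S100a6 is highest in control replicate 1.

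The bases before the transcription start of Lcn2, S100a8 and S100a9 are shown because each gene's own difference was similar against either control. A further reason is that NFAT, the factor that calcineurin activates, binds sites around GGAAA. RefSeq (GRCm38.p6) gave a promoter for 7 of the 8 members. The 250 bases upstream of each start are printed in the direction of transcription, with matches on either strand in capitals for GGAAA (the NFAT core), TGANTCA (AP-1), TTGCNNAA (C/EBP) and TATAAA (the TATA box). They lie at chr2:32387740-32387989 on the minus strand for Lcn2, chr3:90668821-90669070 on the plus strand for S100a8, and chr3:90695722-90695971 on the minus strand for S100a9.
Lcn2: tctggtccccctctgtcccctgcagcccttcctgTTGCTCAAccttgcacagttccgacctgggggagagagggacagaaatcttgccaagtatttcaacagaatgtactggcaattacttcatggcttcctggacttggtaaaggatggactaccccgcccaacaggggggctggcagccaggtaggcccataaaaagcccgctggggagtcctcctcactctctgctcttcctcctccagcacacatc
S100a8: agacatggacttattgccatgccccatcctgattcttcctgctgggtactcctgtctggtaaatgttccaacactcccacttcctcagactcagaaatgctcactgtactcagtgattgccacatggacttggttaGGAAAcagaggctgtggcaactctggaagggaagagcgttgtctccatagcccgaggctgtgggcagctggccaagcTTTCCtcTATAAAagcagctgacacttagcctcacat
S100a9: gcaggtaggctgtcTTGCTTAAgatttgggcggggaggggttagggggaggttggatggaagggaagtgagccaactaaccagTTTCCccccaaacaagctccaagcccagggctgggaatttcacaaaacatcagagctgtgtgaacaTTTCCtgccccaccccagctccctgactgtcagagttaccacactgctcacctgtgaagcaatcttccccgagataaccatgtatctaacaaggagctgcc

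S100a8 and S100a9 each held 2 matches to GGAAA, while Lcn2 held 0 in this window. In S100a8 these began at -114 and -37 before the start and in S100a9 at -167 and -101. Lcn2 held a match to TTGCNNAA at -216, S100a9 a match to TTGCNNAA at -236, and S100a8 the TATAAA at -30. None of the marked matches in these 3 promoters overlapped. Among the 7 members with a promoter, GGAAA was found in 3, TTGCNNAA in 2, TATAAA in 2 and TGANTCA in 1. Of 32851 promoter windows of the same length, 55.6% held GGAAA, 12.4% TATAAA, 9.56% TTGCNNAA and 6.75% TGANTCA, so GGAAA alone is common. The third member with GGAAA was S100a13.

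S100a4, which binds non-muscle myosin and is known from motile and memory cells, was read at 9.03, 9.30 and 9.49 in conditional and at 7.70 and 8.84 in control arrays. The groups did not overlap, but control replicate 1 lay 1.14 below control replicate 2. The mean difference of 1.003 ± 0.365 (SE) became 1.57 against control replicate 1 and 0.43 against control replicate 2. T cell markers were low in the same array, with a median T cell gene difference of 2.33 from that array and -0.37 from the other control, and their part in the S100a4 value was not tested.

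S100a6, which binds calcyclin-binding protein and annexins, went the other way in one control only. It was read at 9.46, 9.59 and 9.30 in conditional arrays, at 11.10 in control replicate 1 and at 9.37 in control replicate 2, which lay within the conditional range. The mean difference of -0.78 ± 0.508 (SE) became -1.65 with control replicate 1 as the only control and 0.08 with control replicate 2, so its direction turned with the control array. All epithelial markers measured had a negative difference against the mean of both controls, 15 of 15, where 8793 of 19937 genes had one. Their median difference was -2.38 from control replicate 1 and -0.30 from the other control. Not all of them shifted with the control array as S100a6 did. Against control replicates 1 and 2, Krt20 was at -1.72 and -1.61, Cdhr5 at -1.31 and -1.51, and Car1 at -2.025 and -1.90. Stromal and endothelial markers, of which 6 of 9 had a negative difference, had medians of -2.38 and -0.40. The part of either list in the S100a6 value was not tested.

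S100a10 and S100a11 were bright and nearly level on all arrays. S100a10, the partner of annexin A2, was read at 12.55, 12.59 and 12.53 in conditional and at 12.55 and 12.29 in control arrays, a difference of 0.14 ± 0.123 (SE). S100a11, a partner of annexin A1, was read at 12.29, 12.16 and 12.20 in conditional and at 12.40 and 12.19 in control arrays, a difference of -0.08 ± 0.120 (SE). Both overlapped between groups, and the sign of the S100a11 value turned to 0.02 after centring arrays on their median and to 0.03 against control replicate 2 alone. The other probe set annotated to S100a11 read 12.00, 11.85 and 11.87 in conditional and 12.17 and 11.94 in control arrays, also with overlap. Both genes ranked at percentile 99.4 or above on every array, where array signals can be compressed.

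S100a13 takes part in the release of interleukin-1 alpha and fibroblast growth factor 1 from stressed cells. It was read at 8.87, 9.05 and 9.31 in conditional and at 8.36 and 8.69 in control arrays. The groups did not overlap, with a gap of 0.18 between the lowest conditional and the highest control value. The difference was 0.55 ± 0.183 (SE), with 0.71 from control replicate 1 and 0.38 from the other control.

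**Figure D3:**
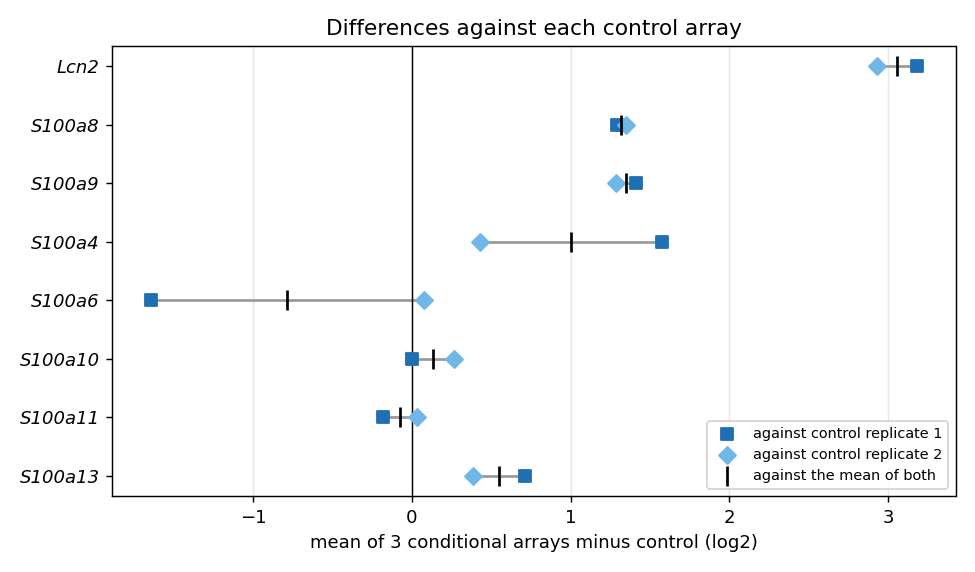
Mean of the 3 conditional arrays minus control on the log2 scale (horizontal axis) for each gene, against control replicate 1 (squares), control replicate 2 (diamonds) and the mean of both (bars). For Lcn2, S100a8 and S100a9 each gene's own 2 control points lie close together, S100a4 runs from 0.43 to 1.57 and S100a6 crosses 0.

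In a limma fit over all genes with Benjamini-Hochberg adjustment, 1 of the 8 members, Lcn2, passed an adjusted p of 0.05, where 0.416% of all genes passed (83 of 19937, with 74 or 0.371% higher and 9 or 0.0451% lower). The 3 conditional values lay above both controls in 5 members, where 17.4% of all genes did so, and below both in 0, where 13.1% did (30.5% in either direction). The median difference over the 8 members was 0.78 (0.41 without control replicate 1) and that over all genes 0.03. Since the members were chosen with this contrast known, these counts describe them and support nothing. The Lcn2 call was lost without any one of the 3 conditional arrays, where 0 genes in all passed (limma; between 1417 and 2037 at an unadjusted p under 0.05), while its difference stayed between 2.82 and 3.195 over all arrays left out in turn. The call was also lost with array weights and with repeated quantile normalization, at differences of 2.98 and 3.06. Without control replicate 1 S100a8 and Lcn2 passed, and without control replicate 2 all members but S100a10 and S100a11 did, with S100a6 as lower, among 1217 and 5474 genes.

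The S100a genes lie on mouse chromosome 3, most of them in one tight cluster and S100a11 and S100a10 in a separate stretch further along. The plot in gene order shows neighbours with unlike values. Of 15 S100a genes on that chromosome in the RefSeq table (GRCm38.p6), 14 were measured. All conditional values were above both controls in 4 (S100a4, S100a8, S100a9 and S100a13), below both in 1 (S100a16), and overlapped in 9, where 17.4% of all genes lay above and 13.1% below. S100a4 and S100a6 have S100a5 alone of the family between them and had mean differences of opposite sign, while S100a5 between them was at 0.06 (0.27 and -0.15 against control replicates 1 and 2). S100a8 and S100a9 are adjacent within the family and differed by like amounts. S100a13 and S100a1 overlap at their starts on opposite strands and were at 0.55 and -1.04. S100a5 and S100a14 are named after their values were seen, for their place in the cluster.

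**Figure D4:**
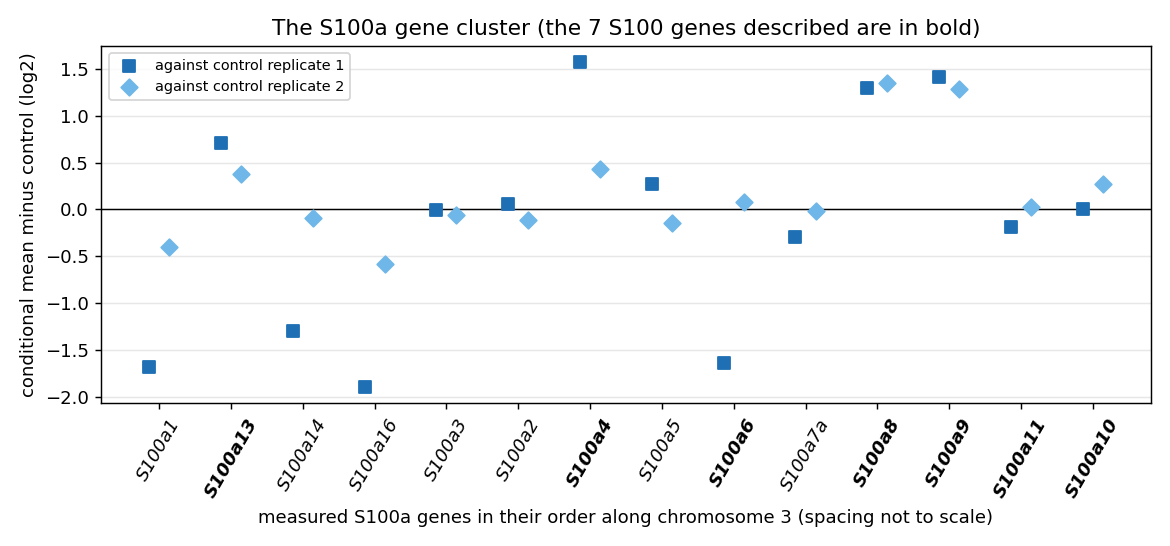
Mean of the 3 conditional arrays minus each control on the log2 scale (vertical axis) for the 14 measured S100a genes in their order along chromosome 3, against control replicate 1 (squares) and control replicate 2 (diamonds). S100a8 and S100a9 lie between 1.29 and 1.41 against both controls, while S100a1, S100a14, S100a16 and S100a6 lie between -1.90 and -1.30 against control replicate 1.

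Among 10 other genes of the family list, none passed the limma test and the median difference was -0.01, turning to 0.09 after centring arrays on their median. S100a16, found in many epithelia, was at 8.05, 7.58 and 7.41 in conditional and at 9.58 and 8.26 in control arrays, a difference of -1.24 ± 0.434 (SE, limma, adjusted p = 0.299). S100a1, best known from muscle, was at -1.04 (limma, adjusted p = 0.393), and S100pbp, a binding protein of the family rather than a member of it, at 0.38 (limma, adjusted p = 0.367). S100a16, S100a1 and S100a14 had, as S100a6 did, their highest value in control replicate 1, the array with the most epithelial and stromal signal. They were at -1.90, -1.69 and -1.30 with it as the only control and at -0.58, -0.40 and -0.09 with control replicate 2. S100a7a, S100a3, S100b, S100g and S100z were between -0.16 and 0.11 and are named after their values were seen.

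Of 12 binding partners and cargo genes, 1 rose and 0 fell. Il1a, whose protein is released with the help of S100A13, was at 10.45, 10.24 and 10.81 in conditional and at 5.38 and 5.09 in control arrays, 38.5-fold higher (limma, adjusted p = 0.0112). Its controls ranked at percentile 15.5 and 11.2, where signals may be near background, so the fold is approximate. Like Lcn2, it no longer passed without any one conditional array. The list median was -0.17, and 0.27 without control replicate 1. Anxa2, the partner of S100A10, was at 10.81, 10.82 and 10.78 in conditional and at 11.68 and 10.26 in control arrays, which enclose the conditional values. It is named after its values were seen, as is Anxa1, the partner of S100A11, at -2.56 against control replicate 1 and 0.20 against control replicate 2.

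None of 11 receptors described for extracellular S100 proteins or lipocalin-2 passed, with a median of 0.14, which turned to -0.19 without control replicate 2 and was 0.76 without control replicate 1. Emb, embigin, a receptor described for calprotectin, was at 12.16, 12.36 and 12.39 in conditional and at 10.54 and 11.47 in control arrays, a difference of 1.30 ± 0.291 (SE, limma, adjusted p = 0.154). Mcam, another receptor described for it, was at 0.50 (limma, adjusted p = 0.315), and Slc22a17, the receptor described for lipocalin-2, at -0.33 (limma, adjusted p = 0.476).

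Of 14 measured factors and cytokines listed as regulators of Lcn2 or the calprotectin genes, not all of them inducers, none passed. The median was 0.40 (0.26 without control replicate 1). Of these genes 10 had positive and 4 negative differences. Spi1, the myeloid transcription factor PU.1, was at 8.76, 9.12 and 8.98 in conditional and at 7.89 and 7.73 in control arrays, a difference of 1.14 ± 0.149 (SE, limma, adjusted p = 0.0672). Il1b, which induces Lcn2 in many cells, was at 10.66, 10.999 and 11.24 in conditional and at 8.41 and 6.96 in control arrays (limma, adjusted p = 0.0726), with the controls 1.45 apart. Stat3, the transducer of interleukin-6 signals, differed by 0.57 (limma, adjusted p = 0.116). Il17a and Il17f, cytokines that induce Lcn2 in epithelium, were at 0.19 and 0.52. Tnf was at 1.40, above both controls in all conditional arrays (2.17 and 0.64 against control replicates 1 and 2). Of the C/EBP factor genes, Cebpa at -0.68 and Cebpb at -0.79 lay below the 2 controls in all conditional arrays (limma, adjusted p = 0.125 and 0.192). The other C/EBP genes overlapped between groups, with Cebpd at -1.14 (-2.55 and 0.27 against control replicates 1 and 2) and Cebpe at -0.02. Tnf and these Il17 and C/EBP genes are named after their values were seen.

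Among 9 gut epithelial defence genes, 1 rose and 0 fell. Slpi, a secreted protease inhibitor of mucosal surfaces and macrophages, was at 8.87, 9.18 and 8.89 in conditional and at 7.30 and 7.33 in control arrays, 3.17-fold higher (limma, adjusted p = 0.0309). It did not pass without any one conditional array, nor with array weights. The list median was 1.07 (0.69 without conditional replicate 1), and 4 genes lay above and 2 below both controls in all conditional arrays, where 17.4% and 13.1% of all genes did. Pigr, the epithelial immunoglobulin transporter, was at -1.69, while Saa3 was at 1.73 and Reg3g at 1.61, both acute-phase or antimicrobial genes, and these are named after their values were seen. Reg3g was at 7.86 and 7.36 in conditional replicates 1 and 2 and at 5.66 in conditional replicate 3, against 5.32 and 5.39 in the controls.

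Iron handling and the other lipocalins did not move with Lcn2 past the test. None of 9 iron genes passed (median -0.26, and 0.01 without control replicate 1). Heph, a ferroxidase, was at -0.35 (limma, adjusted p = 0.288), Slc11a2, the ferrous iron importer, at -0.30 (adjusted p = 0.342), and Hamp, hepcidin, at 0.31 (adjusted p = 0.316). None of 8 other lipocalin genes passed (median 0.10). Apod, apolipoprotein D, was at 7.60, 7.34 and 7.48 in conditional and at 8.55 and 9.11 in control arrays, the opposite side from Lcn2 (limma, adjusted p = 0.08), and the acute-phase genes Orm1 and Orm2 were at 0.48 and 0.40 (limma, adjusted p = 0.166 and 0.437).

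Genes often raised with S100a4 and S100a6 in memory T cells were mixed. None of 12 passed, and the median was 0.18, turning to -0.10 without control replicate 2. Crip1, a small zinc-binding protein gene, differed by 0.64 (limma, adjusted p = 0.110), Cd44, the receptor used as low in the sort, by 0.81 (adjusted p = 0.115), and Emp3, a membrane protein gene, by -0.50 (adjusted p = 0.121).

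Neutrophils and macrophages, which make lipocalin-2 and calprotectin, should be removed by the CD3+CD4+ gate of the sort, and their markers were read as a check. None of 14 measured neutrophil markers passed the test. In all conditional arrays 8 lay above both controls and 1 below, where 17.4% and 13.1% of all genes did, with a median of 0.43 (0.66 without control replicate 2). Their log2 sum was 10.91 to 11.25 in conditional and 10.22 to 10.59 in control arrays. Chil1, a chitinase-like protein gene of neutrophils, macrophages and inflamed epithelium, was at 9.71, 9.21 and 7.81 in conditional and at 6.49 and 6.89 in control arrays, and Mmp9, gelatinase B, overlapped at a difference of -0.07. Of the defining neutrophil genes, named after their values were seen, Ly6g was at 5.71 to 6.27 in conditional and at 6.27 and 6.96 in control arrays. The granule genes Elane, Prtn3 and Camp overlapped at 0.01, -0.14 and -0.01, all at percentile 44.2 or below on every array. Other granule genes, Mpo, Ltf and Mmp8, lay above both controls in all conditional arrays, at 0.48, 0.37 and 0.90. Ngp, Retnlg, Csf3r and Cxcr2 did so too, at 1.85, 1.20, 1.29 and 0.61, while Cd177 overlapped at -0.27. Mmp8 and Cxcr2 ranked at percentile 20.2 or below on every array. All of these are also named after their values were seen.

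Of 13 measured macrophage and monocyte markers none passed, 8 lay above both controls and 0 below, against the same shares of all genes, and the median was 0.76 (0.50 without control replicate 1). Their log2 sum was 11.59, 11.74 and 12.66 in conditional and 11.16 and 10.93 in control arrays. Lyz2, lysozyme, was at 8.92, 9.06 and 10.59 in conditional and at 7.76 and 7.12 in control arrays, and Cd68 at 9.0, 9.27 and 9.71 and at 8.10 and 9.04. Of these markers 12 had positive differences and 1 a negative one. That was Mertk, named after its values were seen, at -1.27 (-2.71 and 0.165 against control replicates 1 and 2). Conditional replicate 3 had the highest macrophage sum and the lowest S100a8 and S100a9 of the conditional arrays. Its Lcn2, at 9.35, was above the 9.27 of conditional replicate 2. Conditional replicate 1 had the highest neutrophil sum and the highest Lcn2, but that sum leans on Chil1, its brightest gene there at 9.71. The median neutrophil marker level was 6.905, 6.678 and 6.929 in conditional replicates 1, 2 and 3, and Ngp was at 7.18, 8.01 and 8.71. The orders of the 3 conditional arrays are description only. The part of neutrophils and macrophages in the Lcn2, S100a8 and S100a9 values was not tested. Of 15 epithelial markers 2 fell, Krt20 and Cdhr5, at -1.67 and -1.41, and neither passed without any one conditional array or with array weights, nor Cdhr5 with repeated quantile normalization. The epithelial median was -1.40 (-0.30 without control replicate 1), and Car1 was at -1.96. Stromal markers (median -1.32, and -0.40 without control replicate 1) and B cell markers (median -0.54, and -0.20 without conditional replicate 3, with Jchain at 0.54 and Cd79b at -0.28) held none past the test, nor did T cell markers (median 1.02, and -0.37 without control replicate 1).

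The genes with the most similar profiles over the 5 arrays were looked up for each member with a range over 1. Likeness was the root mean square difference between log2 profiles, each centred on its own mean, over 18692 genes. Profiles were not scaled, so the size of the group difference, known when the members were chosen, weighs in these ranks. For S100a8 the closest were Alox5ap, a leukotriene synthesis protein gene (0.0856), Itgax, the CD11c integrin (0.1), and Ncf1, a subunit of the phagocyte oxidase (0.107), and S100a9 came 10th (0.140). For S100a9 they were Tlr13, an endosomal sensor of bacterial RNA (0.126), S100a8 (0.140) and Apol7c (0.169). For Lcn2 they were Acod1, the enzyme that makes itaconate (0.271), Clec4d, a pattern receptor of myeloid cells (0.274), and Nlrp3, the inflammasome sensor (0.297), with S100a9 at rank 169 and S100a8 at rank 181. For S100a4 they were Frmd8 (0.0629), Racgap1, a cytokinesis gene (0.0669), and Lmnb1, lamin B1 (0.0674), and S100a6 was at rank 17654. For S100a6 they were Asah1, acid ceramidase (0.0279), Lrch2 (0.0371) and Gpr153 (0.0446).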

How the data were processed

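The deposited table holds log2 signals per probe set, which the authors made with RMA and oligo according to the submitters' processing notes, with versions and genome build not given in the sources used here. RMA subtracts background, quantile-normalizes arrays together and summarises probes, which compresses differences of dim and very bright genes. Of 34760 probe sets, 21640 carried 1 gene symbol in the platform annotation, 1321 several and 11799 none, and each of 19937 genes was read from its brightest probe set. Medians of the arrays were 7.12 to 7.23. The number of arrays, 3 against 2, limits the precision.

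Groups were compared with limma 3.58.1 (R 4.3.3), lmFit and eBayes without covariates, Benjamini-Hochberg adjustment over all genes and a threshold of 0.05. The procedure was tested on simulated data with independent genes and, for each gene, the same variance on every array. That setting does not cover arrays that differ in cell makeup, as these do. Members and lists were chosen with earlier results of these data known, the promoter motifs after the sequences were seen. Named genes were the members, the targeted gene, list members past the threshold or otherwise the 3 with the smallest p, the 2 brightest of each marker list, and the 3 nearest profiles of each member with a range over 1. Of the listed genes, 8 were not analysed here. Promoters are from RefSeq (GRCm38.p6). Alternatives covered normalization, filters on dim genes, probe sets, variance trend, weights, a replicate block, thresholds and each array left out.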

Additional observations from a re-analysis of the deposited data

How the results depend on the processing

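All members kept the sign of their difference under the alternatives tried, except S100a6, which turned to 0.077 without control replicate 1, and S100a11, which turned to 0.017 with arrays centred on their median and to 0.03 without control replicate 1. Over those alternatives the difference ran from 2.82 to 3.195 for Lcn2, from 1.21 to 1.41 for S100a8 and from 1.15 to 1.56 for S100a9. Over arrays left out in turn it ran from 0.43 to 1.57 for S100a4, from -1.65 to 0.08 for S100a6, from 0.003 to 0.27 for S100a10, from -0.18 to 0.03 for S100a11 and from 0.38 to 0.71 for S100a13.

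Against 83 genes and 1 member past the threshold, array weights gave 13 genes and 0 members, and repeated quantile normalization 48 and 0 (Lcn2 lost in both), a threshold of 0.01 gave 0 and 0 (limma, with 2892 genes at an unadjusted p under 0.05), and a threshold of 0.1 gave 374 and 2. Centring arrays on their median gave 110 genes and 2 members, and an intensity trend 100 and 2. Leaving out arrays in turn gave between 0 and 5474 genes and between 0 and 6 members. Without control replicate 1 or 2 only a single control array remains, assumed to vary like the conditional arrays. The cause of these shifts was not tested. The filter at the median of gene means left 6 members to test, because S100a8 and S100a9 were too dim for it. Among these 6 members, 3 did not overlap between groups, and the share over all genes left by this filter was not computed. The replicate block gave 69 genes and 1 member, and differences of 3.16 for Lcn2, 1.41 for S100a8 and 1.56 for S100a9, while Slpi, Krt20 and Cdhr5 did not pass with it. No control array carried number 3, so conditional replicate 3 added nothing to these differences. They equal those of the fit without conditional replicate 3, where 0 genes passed, so the block is not a separate check. Same-numbered arrays deviated from their group means with correlations of 0.4 and -0.287 over genes for numbers 1 and 2. With 2 control arrays, their deviations from the control mean are equal and opposite. These correlations therefore cannot decide whether equal numbers mark pairs. The labels do not say so, and the comparison was made without pairs. Low signal limits S100a8 most, since its controls ranked at percentile 20.3 and 18.2.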
